A study of Mus musculus with 4 samples.

Results

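Collagens, laminins and their basement membrane partners are the proteins on which tubules, vessels and interstitial cells of the testis rest, and 62 of the 25265 genes in the deposited count table belong to this set by symbol. Members were taken by name only: every symbol that starts as a collagen chain or a laminin chain, plus Nid1, Nid2, Hspg2, Fn1, Sparc, Ddr1 and Ddr2. That gave 43 collagen chains, 11 laminin chains and the 7 named genes. It also gave Col4a3bp, which matches the collagen pattern but encodes a ceramide transfer protein and no collagen. A total of 61 members passed the filter on low counts, and Col9a2, with 3 and 8 counts in control against 5 and 7 in the other group, did not.

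The study compared whole testes of C57BL/6 mice at postnatal day 56, by RNA sequencing after ribosomal RNA depletion. There were 2 libraries with the genotype control and 2 with the genotype Ythdf2-vKO, and the series title speaks of mutants specific to germ cells. YTHDF2 is a cytoplasmic reader of N6-methyladenosine that brings bound RNA to decay. The labels give no driver for the deletion, no deleted segment and no fuller description of the control genotype. They do not say whether the libraries came from separate animals, so the p-values measure the spread between these libraries, which may be technical. A testis holds germ cells and somatic cells, and a gene's level here is a sum over all of them.

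Control libraries held 24862518 and 29561182 counts, and those labelled vKO 26298245 and 26265700. Ythdf2 itself was counted 1193 and 1604 times in control, against 1774 and 1807 times in the vKO-labelled libraries. Its log2 fold change was 0.35 (SE 0.13, BH-adjusted p 0.238), so the transcript was not lower where the label says it is mutated, and all groups are named by their labels. Markers of the expected testis cells were present, with elongating spermatid genes summing to 8589.3 to 11039 CPM (counts scaled to a common library size) and Sertoli cell genes to 1033.3 to 1473.9 CPM. Of 6 epididymis genes listed, only Crisp1 was among the genes counted, at 0.336 CPM or less, so this check rests on 1 gene. Libraries also differed by base composition: the deviation of each library from the mean, set against transcript GC content over 17817 genes, gave a Spearman correlation of 0.0249 and -0.406 in control replicates 1 and 2, and 0.258 and 0.194 in vKO replicates 1 and 2.

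Collagens are trimers of chains that wind around each other. Fibril-forming types give connective tissue its strength, type IV forms the sheet of every basement membrane, and laminins, each built from an alpha, a beta and a gamma chain, form a second sheet to which cells attach. Nidogens and perlecan tie both sheets together. In the testis a basement membrane shared by Sertoli cells and peritubular myoid cells surrounds each seminiferous tubule, and it includes the type IV chains known from kidney glomeruli.

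Levels between genes were compared as CPM per kb of exon. The length was the union of all annotated exons of a gene, which can be longer than the transcripts present. Comparisons between genes are therefore rough. Sparc, a secreted collagen-binding glycoprotein, had the highest mean level over the 4 libraries, at 68.1 CPM per kb. It was followed by the fibril-associated collagens Col22a1 at 35.9 CPM per kb and Col16a1 at 27.3 CPM per kb. Col22a1 lay between 34.6 and 37.8 CPM per kb in the 4 libraries and Col16a1 between 22.0 and 30.0, so the ranges of these neighbours in the order did not overlap. Col4a3bp at 14.1 CPM per kb and Col20a1, another fibril-associated collagen, at 13.0 CPM per kb came next. Their ranges, 12.7 to 15.2 and 11.7 to 15.2 CPM per kb, overlapped in full. Only these 5 members exceeded 10 CPM per kb on average, and 31 lay under 1. Together, the members took 0.141% and 0.144% of all counts in the control libraries and 0.178% and 0.168% in those labelled vKO, and Col22a1, Col16a1 and Sparc alone made up 47.3% to 50.1% of the member counts of a library. The main chains of interstitial fibres in other tissues were low by comparison: Col1a1 averaged 0.98 CPM per kb, Col1a2 1.04 and Col3a1 0.875.

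**Figure D1:**
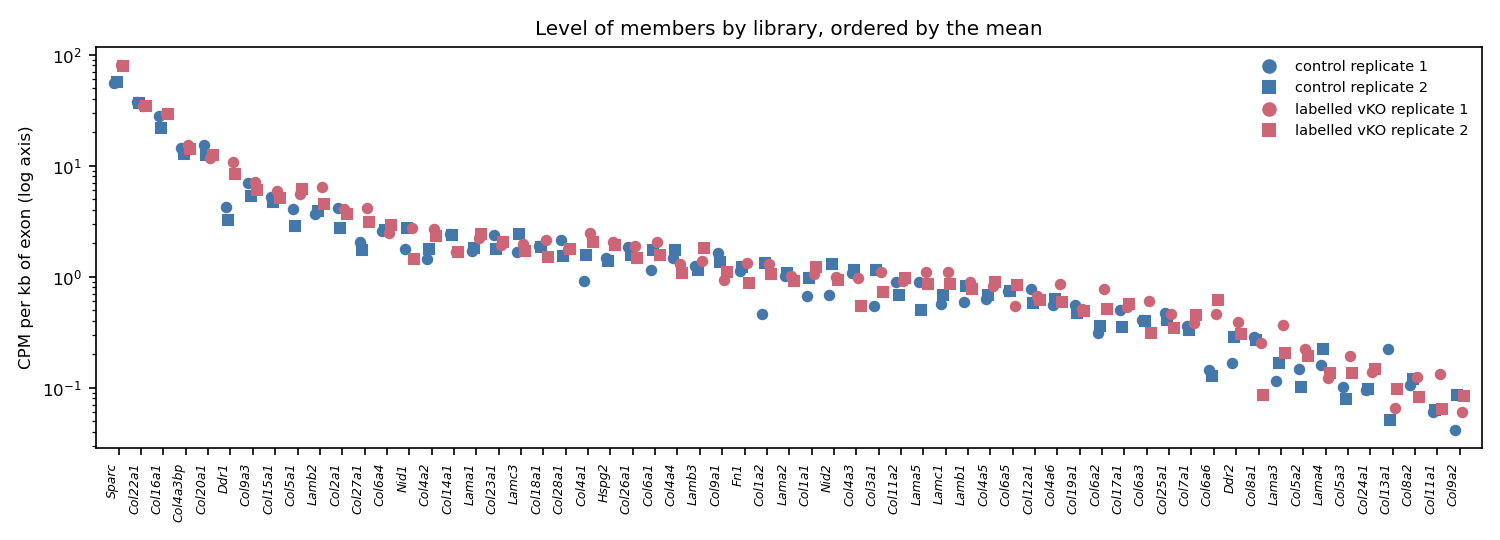
Level of 61 of the 62 members in CPM per kb of exon (log axis), ordered by the mean over the 4 libraries; circles are replicate 1 and squares replicate 2, blue for control and red for the vKO-labelled libraries. Sparc, Col22a1 and Col16a1 stand at the left with means of 68.1, 35.9 and 27.3, and Col9a2, at 0.068, is last.

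In all, 3 genes rose in the vKO-labelled libraries at a Benjamini-Hochberg (BH) adjusted p under 0.05, and none fell: the collagen receptor Ddr1, the type VI chain Col6a6 and the fibril-forming chain Col27a1. That is 3 of 61 members tested. Over all 21132 genes tested, 0.279% were called higher, 0.114% lower and 0.393% either way. Without control replicate 1 the members called higher numbered 8, without control replicate 2 they numbered 11 and without vKO replicate 1 they numbered 2, and calls over all genes moved as well, from 83 to 1512, 1077 and 35.

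Ddr1 is a receptor tyrosine kinase that is switched on by collagen. The gene spans bases 35681567 to 35704621 of chromosome 17 (GRCm38, minus strand). Its level was 20.1 and 15.3 CPM in the control libraries and 51.8 and 40.0 CPM in those labelled vKO, from 469 and 460 counts against 1386 and 1078. Both libraries labelled vKO lay well above both controls. The means were 17.7 ± 3.34 against 45.9 ± 8.36 CPM (SD, n = 2 each, as for every mean ± SD below), a 2.6-fold difference with a log2 fold change of 1.38 (SE 0.17, BH-adjusted p 0.00731). Of the 61 members it had the lowest p. Its exons overlap those of the antisense gene Gm4577 by 216 bases. In a whole tissue, more cells of a type and more RNA per cell cannot be told apart.

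Col6a6 encodes one of the longer alternative chains that can take the place of Col6a3 in type VI collagen, the protein of beaded microfilaments. It spans bases 105687809 to 105828160 of chromosome 9, minus strand. It was rare in control, with 31 and 35 counts (1.33 and 1.17 CPM), and had 114 and 153 counts (4.26 and 5.67 CPM) in the vKO-labelled libraries. The groups were far apart on this low level, 1.25 ± 0.112 against 4.96 ± 0.999 CPM. Its log2 fold change of 1.99 (SE 0.30, BH-adjusted p 0.0171) was the largest of the 61. The neighbouring genes Col6a5 and Col6a4, its closest relatives on the same strand of chromosome 9, did not pass: Col6a5 had 6.93 and 6.94 CPM in control against 5.16 and 7.97 CPM, and Col6a4 had 21.9 and 22.4 against 21.0 and 24.6 CPM. Col6a6 and Col6a5 share 322 sequences of 50 bases, 3.69% of those in the longest transcript of Col6a6, so a small part of their reads cannot be assigned with certainty.

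Col27a1, a fibril-forming chain best known from cartilage, spans bases 63214004 to 63334991 of chromosome 4, plus strand. Its level was 26.8 and 22.8 CPM in control against 54.6 and 40.7 CPM. The groups did not overlap, at 24.8 ± 2.78 and 47.6 ± 9.81 CPM. The log2 fold change was 0.94 (SE 0.16, BH-adjusted p 0.0317), and it was 0.72 with an adjusted p of 0.264 when vKO replicate 1 was left out, in which case the lone library left in that group is assumed to vary like the others.

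Upstream sequences of the 3 genes that rose are shown because they rose together. They are RefSeq windows in GRCm38.p6 upstream of the outermost listed start, without bases that GENCODE M21 annotates as exon, each 5′ to 3′ on the gene's own strand. Ddr1 is chr17:35704622-35704849, Col6a6 is chr9:105828161-105828335 and Col27a1 is chr4:63215162-63215411, which is intronic to a longer annotated transcript. Capitals mark the GC box GGGCGG, the CCAAT box CCAAT and the TATA box TATAAA on either strand.
Ddr1: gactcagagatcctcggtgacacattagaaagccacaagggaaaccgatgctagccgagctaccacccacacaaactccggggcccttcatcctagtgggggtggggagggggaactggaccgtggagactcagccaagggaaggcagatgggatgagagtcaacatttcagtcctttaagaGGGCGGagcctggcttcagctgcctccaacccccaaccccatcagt
Col6a6: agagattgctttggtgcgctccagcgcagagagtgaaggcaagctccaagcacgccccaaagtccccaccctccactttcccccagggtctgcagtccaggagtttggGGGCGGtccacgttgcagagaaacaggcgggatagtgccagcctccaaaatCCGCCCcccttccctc
Col27a1: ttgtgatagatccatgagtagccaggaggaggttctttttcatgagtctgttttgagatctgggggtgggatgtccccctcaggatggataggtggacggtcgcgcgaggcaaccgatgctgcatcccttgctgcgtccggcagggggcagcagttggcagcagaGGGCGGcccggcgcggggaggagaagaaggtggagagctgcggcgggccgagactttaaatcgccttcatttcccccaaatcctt
The marked stretches are GC boxes, 1 in Ddr1, 2 in Col6a6 and 1 in Col27a1, and no CCAAT or TATA box occurs in these stretches. Over the full RefSeq windows around starts, the GC box was in 60.8% of 51 windows of 44 matched members and in 35.7% of 32851 windows of all genes. The CCAAT box was in 31.4% and 37.4%, and the TATA box in 9.8% and 13.6%. These matches describe letters only.

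**Figure D2:**
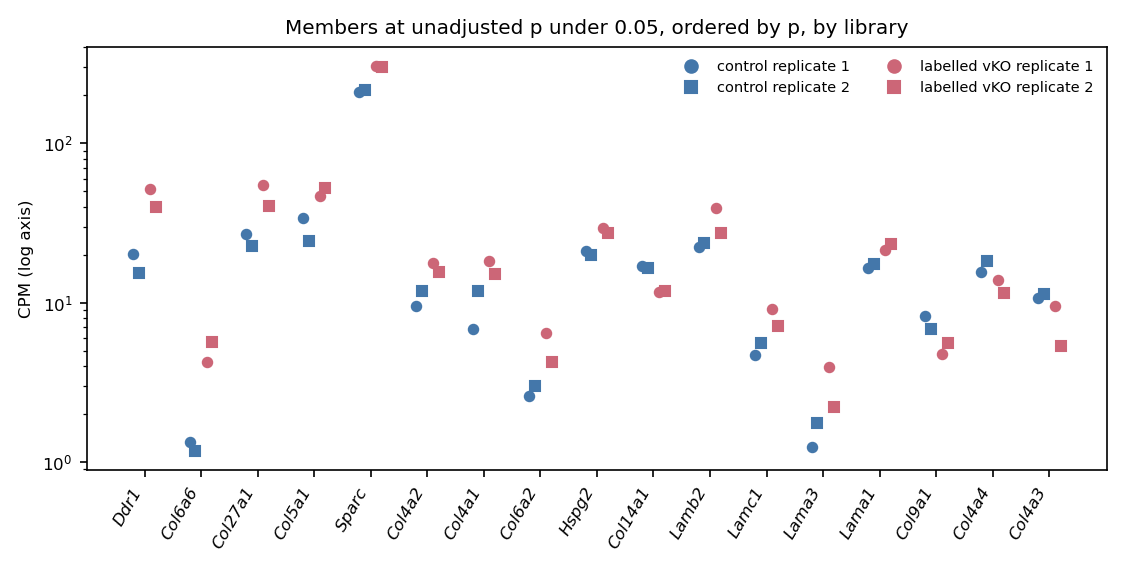
CPM (log axis) of the 17 members at an unadjusted p under 0.05, ordered by p from left to right; circles are replicate 1, squares replicate 2, blue control, red the vKO-labelled libraries. In Ddr1, Col6a6 and Col27a1 both red points lie above both blue points, and in Col14a1, Col9a1, Col4a4 and Col4a3 both lie below.

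At an unadjusted p under 0.05 there were 13 members higher and 4 lower of the 61, or 27.9%, against 14.1% of all genes tested (7.65% higher and 6.47% lower). In 25 members both libraries labelled vKO lay above both controls and in 9 below, while over all genes those shares were 22.7% and 22.6%. The log2 fold change was above 0 in 38 of 61 members, against 50.3% of all genes. The median log2 fold change was 0.23 over the members and 0.00 over all genes tested. Members are rich in GC, with a median of 54.0% against 48.9%, and 53 of 61 lie above the median of all genes. With an offset for GC content fitted per library, the members' median was 0.04 with 33 of 61 above 0, and the median of all genes was -0.02. Members at an unadjusted p under 0.05 then numbered 9 higher and 5 lower. Across the 61 members, which share libraries and differ in base composition, the Spearman correlation of log2 fold change with GC content was 0.286. Over 21116 genes tested it was 0.255, so this dependence was not particular to the members. The genes Ddr1, Col6a6 and Col27a1 remained called with the offset at log2 fold changes of 1.16, 1.93 and 0.72.

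**Figure D3:**
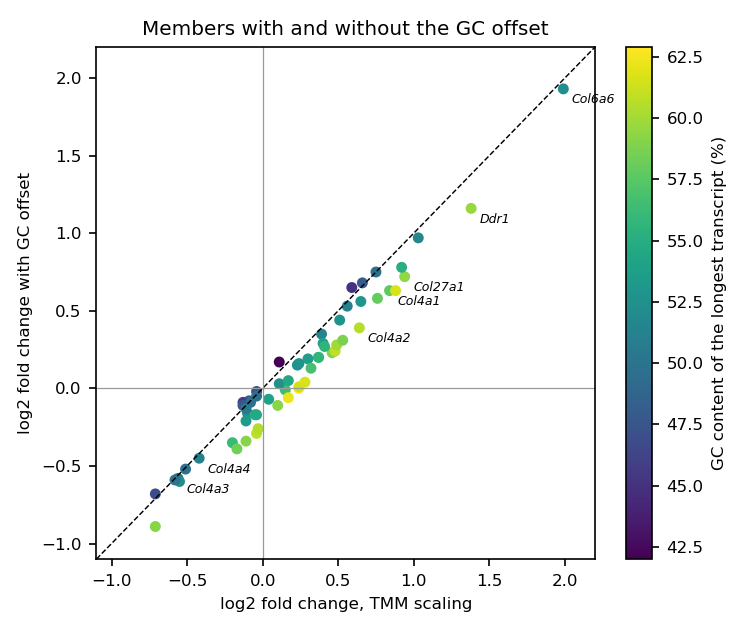
Log2 fold change of the 61 tested members with TMM scaling (horizontal) and with the GC offset (vertical), coloured by transcript GC content; the dashed line marks equal values. Members of high GC content lie below the line, and the median moves from 0.23 to 0.04.

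Among the fibril-forming collagens 1 of 11 was called, Col27a1, and all 11 had a log2 fold change above 0, from 0.11 to 0.94 with a median of 0.56. With the GC offset the median was 0.53 and 9 of 11 were above 0. Col5a1, which sits inside collagen fibrils and limits their width, had the highest level of this group per length. It measured 34.2 and 24.3 CPM in control against 46.7 and 52.6 CPM in the vKO-labelled libraries, with no overlap. Its log2 fold change was 0.76 (SE 0.17, BH-adjusted p 0.0778), which did not pass, and the authors' deposited table gave 0.76 (SE 0.19) with an adjusted p of 0.0138. Its partner chain Col5a2 was low, at 0.166 CPM per kb, with an unadjusted p of 0.0649. The classical interstitial chains varied most within the control group. Col1a2 had 5.78 CPM in control replicate 1 and 16.6 in control replicate 2, against 16.2 and 13.0 CPM in the vKO-labelled libraries. Col3a1 had 5.3 and 11.2 CPM against 10.8 and 7.08 CPM. In both genes control replicate 1 was the lowest of the 4 libraries and the groups overlapped. Col1a1, the main partner of Col1a2, had 4.41 and 6.4 CPM against 6.95 and 7.97 CPM. The groups were apart by a small margin, at a log2 fold change of 0.46 (SE 0.23, BH-adjusted p 0.407). Interstitial fibroblast markers summed to 18.4 and 31.2 CPM in control against 35.2 and 34.1 CPM in the vKO-labelled libraries. Not all of them rose between the control libraries. Ly6a had 0.77 and 5.44 CPM there, while Mfap5 had 4.79 and 4.7 CPM and Dpt 0.257 and 0.2 CPM. Between groups, 4 of 6 markers tested had a log2 fold change above 0. The part of these markers in the result was not tested.

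**Figure D4:**
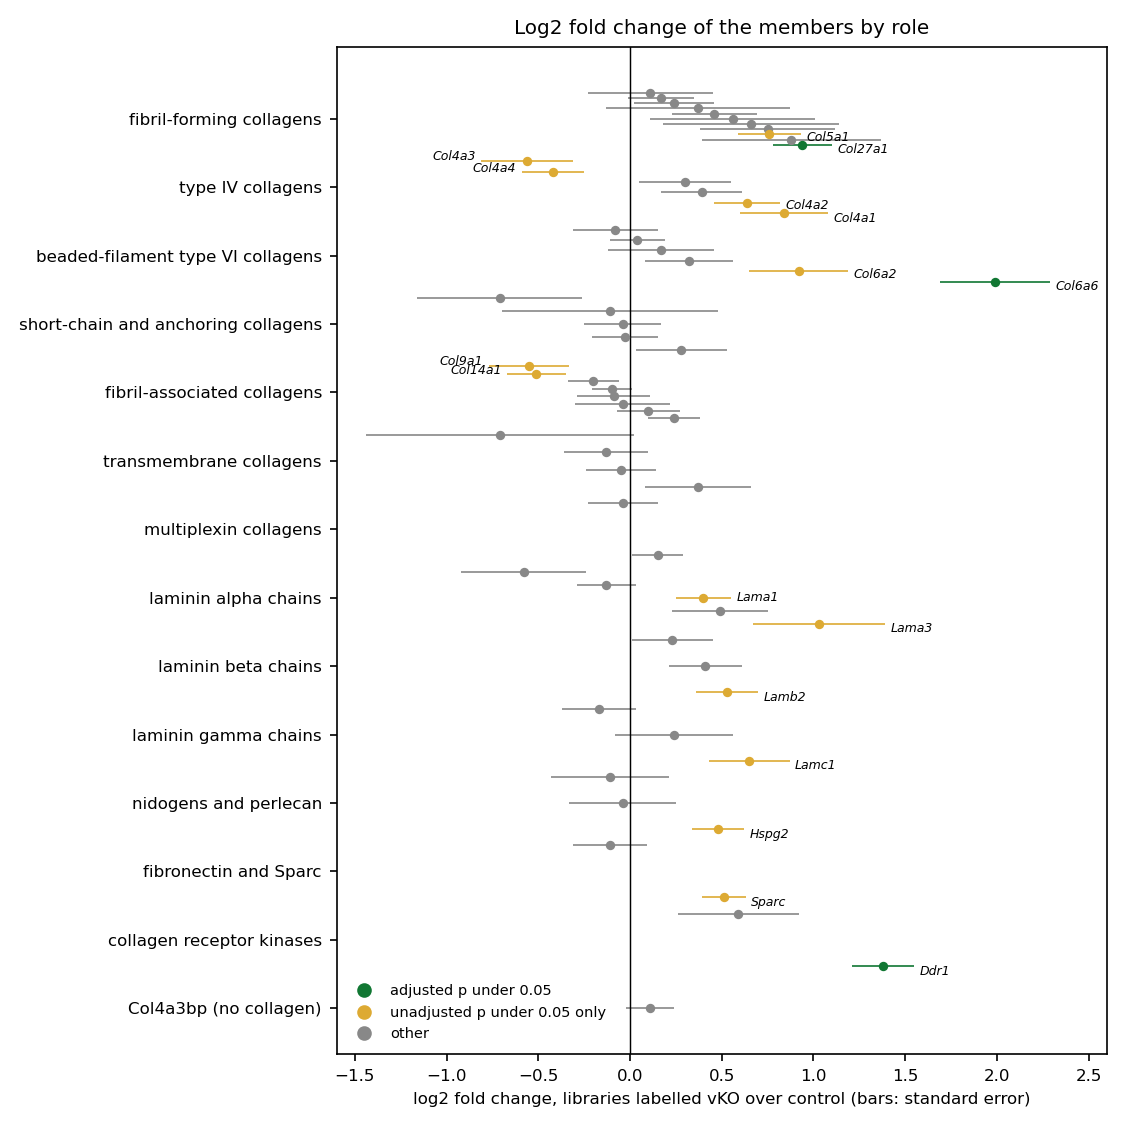
Log2 fold change (points) and standard error (bars) of the 61 tested members, grouped by role; green marks an adjusted p under 0.05 and yellow an unadjusted p under 0.05 only. All 11 fibril-forming collagens lie right of 0, and Col6a6 lies farthest right at 1.99.

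The 6 type IV chains come as 3 pairs of genes that face away from each other on the genome, and the pairs differed in direction although no chain passed the adjusted threshold. Col4a1 and Col4a2, which make the ubiquitous network, were higher. Col4a1 had 6.85 and 11.8 CPM in control against 18.4 and 15.2 CPM, and Col4a2 had 9.5 and 11.8 against 17.8 and 15.5 CPM. Neither overlapped between groups, and control replicate 1 was the lowest library in both. Their log2 fold changes were 0.84 (SE 0.24, BH-adjusted p 0.159) and 0.64 (SE 0.18, BH-adjusted p 0.145). For Col4a1 the value depended on the control library kept: 0.51 when control replicate 1 was left out, and 1.30, past the threshold, when control replicate 2 was. Col4a3 and Col4a4, chains of the glomerular type of network, were lower. Col4a3 had 10.7 and 11.4 CPM in control against 9.6 and 5.37 CPM, and Col4a4 had 15.5 and 18.3 against 13.9 and 11.5 CPM. The groups again did not overlap, and most of the difference in Col4a3 came from vKO replicate 2. Over all genes tested, 22.7% had both vKO-labelled libraries above both controls and 22.6% had both below. Log2 fold changes of Col4a3 and Col4a4 were -0.56 (SE 0.25, BH-adjusted p 0.33) and -0.42 (SE 0.17, BH-adjusted p 0.301). Without vKO replicate 2 that of Col4a3 was -0.21. Col4a5, which joins the Col4a3 and Col4a4 chains in their trimer, and Col4a6 stood at 4.19 and 4.57 against 5.49 and 6.00 CPM, and at 4.41 and 4.97 against 6.84 and 4.71 CPM. Their log2 fold changes of 0.39 and 0.30 had adjusted p values of 0.472 and 0.646.

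The ratio of the Col4a1 and Col4a2 level to the Col4a3 and Col4a4 level, in CPM per kb, was 0.929 and 1.17 in control against 2.27 and 2.69 in the vKO-labelled libraries. This ratio was formed after the values had been seen. It did not overlap between groups, and its exact two-sided permutation p of 0.333 is the smallest that 2 libraries against 2 allow. Both outcomes were fixed by the choice of chains, since each chain was already separate between groups and the pairs went opposite ways. They add nothing to the values of the single chains. Transcript GC content also differs between the pairs, at 57.7% and 60.6% for Col4a1 and Col4a2 and 50.4% and 51.1% for Col4a3 and Col4a4. With the GC offset the 4 log2 fold changes were 0.63, 0.39, -0.58 and -0.45 in that order, with the signs kept. Those of Col4a1 and Col4a2 were smaller than the 0.84 and 0.64 without it, at BH-adjusted p values of 0.304 and 0.385. Per length, Col4a1 stood at 0.639 and 0.882 times Col4a2 in control and at 0.917 and 0.872 times in the vKO-labelled libraries, and Col4a3 stood at 0.735 and 0.664 times Col4a4 against 0.738 and 0.498 times. The groups overlapped in both ratios.

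The sequences between or across the paired starts are shown because the chains of a pair had the same direction. In GENCODE M21 the starts of Col4a1 (minus strand, 11312826) and Col4a2 (plus strand, 11312805) on chromosome 8 overlap by 22 bases, at chr8:11312805-11312826. The starts of Col4a4 (minus strand, 82586849) and Col4a3 (plus strand, 82586921) on chromosome 1 leave 71 bases, at chr1:82586850-82586920. Both are printed on the plus strand of GRCm38.p6, from RefSeq windows, with GC boxes in capitals.
Col4a1 and Col4a2: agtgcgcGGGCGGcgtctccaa
Col4a4 and Col4a3: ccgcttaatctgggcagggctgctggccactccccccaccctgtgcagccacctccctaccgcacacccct
The first holds 1 GC box and the second none of the 3 motifs. Col4a6 and Col4a5, on chromosome X, are 1308 bases apart.

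**Figure D5:**
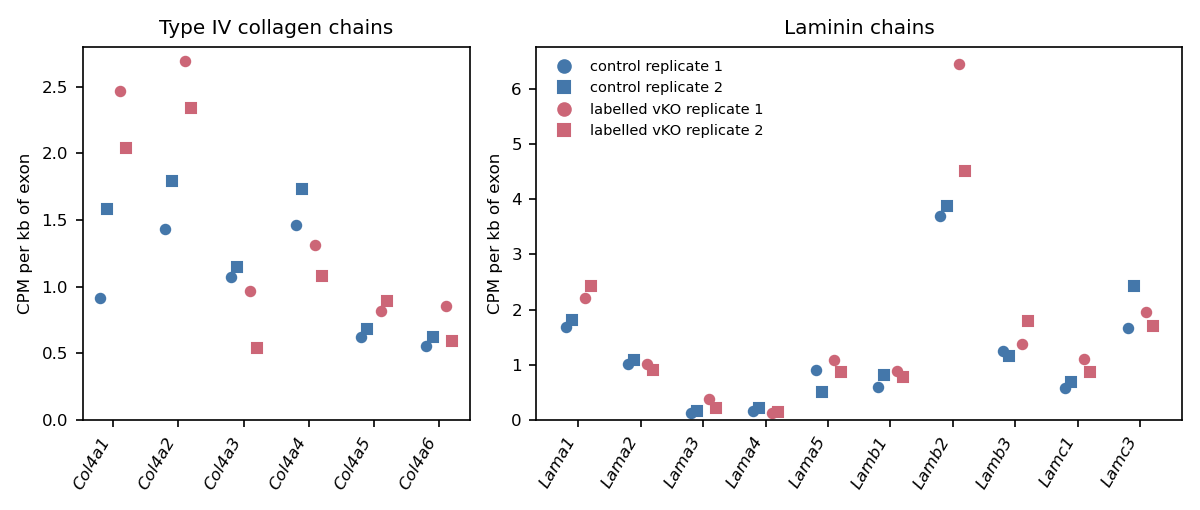
CPM per kb of exon in each library for the 6 type IV collagen chains (left) and 10 of the 11 laminin chains (right); circles are replicate 1, squares replicate 2, blue control, red the vKO-labelled libraries. Col4a1 and Col4a2 are higher and Col4a3 and Col4a4 lower in red, and Lamb2 is the most abundant laminin chain.

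Laminin chains had no called member, with 8 of 11 above 0, a median log2 fold change of 0.40 and 4 of 11 at an unadjusted p under 0.05, all higher. Over all genes 50.3% were above 0 and 7.65% were higher at that unadjusted p. With the GC offset the laminin median was 0.27, against -0.02 over all genes. The 4 chains had been picked by the unadjusted p without the offset. With it, their log2 fold changes were 0.29 (Lama1, SE 0.15), 0.97 (Lama3, SE 0.35), 0.31 (Lamb2, SE 0.16) and 0.56 (Lamc1, SE 0.22). The BH-adjusted p values with the offset were 0.411, 0.23, 0.431 and 0.261 in that order. Lamb2 was the most abundant chain per length, at 4.63 CPM per kb, and had 22.5 and 23.6 CPM in control against 39.2 and 27.4 CPM. Its log2 fold change was 0.53 (SE 0.17, BH-adjusted p 0.197), and it was 0.25 without vKO replicate 1. Lamb1, the other chain that fits the same place in most laminins, had 5.9 and 8.14 against 8.85 and 7.67 CPM, with overlapping groups. Lama1, an alpha chain of the tubule basement membrane, had 16.4 and 17.5 CPM in control against 21.4 and 23.4 CPM, apart by a small step with a log2 fold change of 0.40 (SE 0.15, BH-adjusted p 0.256). Per length Lama1 stood at 2.03 CPM per kb and Lama2, the alpha chain best known from muscle, at 1.01. Their exon unions measured 9681 and 16338 bases, and their means before division by length were closer, at 19.7 and 16.4 CPM. Lama2 had 16.7 and 17.6 CPM in control against 16.6 and 14.8 CPM (log2 fold change -0.13, SE 0.16, adjusted p 0.775). Lamc1, the gamma chain of most laminins, had 4.71 and 5.6 against 9.11 and 7.12 CPM, a log2 fold change of 0.65 (SE 0.22, BH-adjusted p 0.213).

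The chains Lama3, Lamb3 and Lamc3 are known from the junction between Sertoli cells and elongating spermatids. Lama3 was scarce, with 29 and 53 counts in control against 106 and 60 in the vKO-labelled libraries, or 1.24 and 1.77 against 3.96 and 2.22 CPM. The groups did not overlap, and the log2 fold change of 1.03 (SE 0.36, BH-adjusted p 0.229) became 0.55 without vKO replicate 1. Lamb3 had 8.26 and 7.61 against 9.11 and 11.9 CPM (log2 fold change 0.41, SE 0.20, adjusted p 0.383), and its value was 0.20 without vKO replicate 2. Lamc3 had 10.1 and 14.7 against 11.9 and 10.3 CPM, with a log2 fold change of -0.17 (SE 0.20, BH-adjusted p 0.781). Without control replicate 2 that of Lamc3 was 0.14, so its direction is not settled by these libraries. Lama4, mostly of vessels, and Lama5 did not pass either, with log2 fold changes of -0.58 (SE 0.34) and 0.49 (SE 0.26). Without control replicate 1, Lama5 had a log2 fold change of 0.96 and passed at an adjusted p of 0.00383, and when control replicate 2 was left out it had 0.11 at an adjusted p of 0.863. Its control libraries differed, at 10.3 and 5.67 CPM. Of the Sertoli cell markers 12 of 12 had a log2 fold change above 0, with a median log2 fold change of 0.39 and summed levels of 1033.3 and 1070.7 CPM in control against 1473.9 and 1292.4 CPM. Wt1 was the 1 marker called among them, and their part in the laminin values was not tested.

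Of the proteins that link laminin and type IV collagen, perlecan differed most between groups and the nidogens varied between replicates. Hspg2, which encodes perlecan, had 21.1 and 19.9 CPM in control against 29.5 and 27.5 CPM. The groups were separate and each was tight, with a log2 fold change of 0.48 (SE 0.14, BH-adjusted p 0.173) that did not pass and was 0.24 with the GC offset. Nid1 had 12.3 and 19.0 CPM against 19.2 and 10 CPM, and Nid2 had 3.51 and 6.7 against 5.16 and 4.86 CPM. In both nidogens the groups overlapped, and no difference was detectable at this spread (log2 fold changes -0.11, SE 0.32, and -0.04, SE 0.29). Nid2 overlaps Rtraf on the opposite strand by 437 exonic bases, and Rtraf had 2335 to 3936 counts. The library kit keeps strand, but whether counting used it is not given in the sources used here.

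Sparc had 209.8 and 216.3 CPM in control against 304.6 and 301.8 CPM in the vKO-labelled libraries. The replicates of each group were nearly equal, at 213.1 ± 4.63 and 303.2 ± 1.98 CPM, and the groups were clearly apart. The log2 fold change of 0.51 (SE 0.12) had an adjusted p of 0.0878 and did not pass, while the authors' deposited table gave 0.51 (SE 0.13) at an adjusted p of 0.0195. Fibronectin, Fn1, a matrix glycoprotein of interstitium and vessels, had 13.3 and 14.4 CPM against 15.4 and 10.2 CPM, with overlapping groups. In the authors' deposited table the adjusted p was under 0.05 for 5 members, all higher: Ddr1, Col6a6, Col27a1, Col5a1 and Sparc. Over the 16448 genes with a deposited adjusted p, 0.833% were higher at that threshold.

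Type VI collagen is normally built from Col6a1, Col6a2 and a longer chain such as Col6a3. Beyond Col6a6, called above, Col6a2 had 2.61 and 3.0 CPM in control against 6.43 and 4.26 CPM, with a log2 fold change of 0.92 (SE 0.27, BH-adjusted p 0.163). Col6a1 had 5.05 and 7.57 against 9.0 and 6.78 CPM, and Col6a3 had 4.88 and 4.8 against 7.17 and 3.74 CPM. The groups overlapped in the latter 2 genes. Of the 6 chains 5 had a log2 fold change above 0 and 1 was called.

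Fibril-associated collagens, which decorate fibrils without forming them, leaned the other way. Of 8 tested, 6 were below 0, the median log2 fold change was -0.09 and none was called. Col14a1 had 17.0 and 16.5 CPM in control against 11.7 and 11.8 CPM, a clean separation with a log2 fold change of -0.51 (SE 0.16, BH-adjusted p 0.185). Col9a1 had 8.3 and 6.84 against 4.74 and 5.6 CPM, with a log2 fold change of -0.55 (SE 0.22, BH-adjusted p 0.281). The abundant Col22a1 had 347.7 and 335.8 CPM against 318.8 and 320.2 CPM, a log2 fold change of -0.10 (SE 0.11, BH-adjusted p 0.771), and Col16a1 had 189.2 and 148.5 against 202.4 and 196.5 CPM, with a log2 fold change of 0.24 (SE 0.14, BH-adjusted p 0.46). The value for Col16a1 was 0.01 with the GC offset, and the gene was called when control replicate 1 was left out. Elongating spermatid markers also leaned lower, with 7 of 8 below 0, a median of -0.27 and summed levels of 11039 and 8934.6 CPM in control against 8589.3 and 8731.7 CPM, and their part here was not tested. Col9a3 shares 234 exonic bases with Tcfl5 on the opposite strand, and Tcfl5 had 11060 to 12265 counts, so the level of Col9a3, 6.39 CPM per kb, is uncertain.

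No remaining collagen passed, and the scarce ones were measured with wide error. Short-chain and anchoring types had 1 of 5 above 0, transmembrane types 1 of 4 and the multiplexins 1 of 2, and no gene of these groups passed at an unadjusted p of 0.05. Their leading members per length were Col28a1 at 8.98 ± 2.18 against 8.71 ± 0.101 CPM, Col23a1 at 11.8 ± 2.44 against 11.4 ± 0.358 CPM, and Col15a1, a basement membrane proteoglycan, at 31.6 ± 2.33 against 35.2 ± 3.82 CPM. Each of these 3 differences was smaller than the larger SD of its groups. The lowest log2 fold changes of all members were in these groups too, at -0.71 (SE 0.45) for the short-chain Col8a1, with 2.22 and 2.1 CPM in control against 1.98 and 0.667 CPM, and at -0.71 (SE 0.73) for the transmembrane Col13a1, from 24 and 7 counts in control against 8 and 12. Neither difference is resolved at this spread. Col4a3bp, the gene that is no collagen, had 111.9 ± 10.6 against 120.3 ± 6.37 CPM and did not pass either. The second collagen receptor kinase, Ddr2, which prefers fibrillar collagen, had 1.54 and 2.67 CPM in control against 3.59 and 2.82 CPM. The groups were apart by a small margin, at a log2 fold change of 0.59 (SE 0.33, BH-adjusted p 0.454). Per length, Ddr1 exceeded Ddr2 by 25.3 and 11.2 times in control and by 28.0 and 27.5 times in the vKO-labelled libraries. The exon unions behind these ratios measured 4774 bases for Ddr1 and 9264 for Ddr2.

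Replicates of a group differed widely in some members. In 7 members control replicate 2 was over 1.5 times control replicate 1, with Col1a2 (2.88 times), Col3a1 (2.11 times) and Nid2 (1.91 times) among them, and in 2 members the reverse held, with the scarce Col13a1 at 0.227 times the most uneven. Between vKO-labelled libraries, replicate 1 was over 1.5 times replicate 2 in 10 members, with Col8a1 (2.97 times) and Nid1 (1.91 times) among them, and the reverse held in 1. Of the 62 members, 21 were lowest in control replicate 1 and 22 in control replicate 2. Over all genes tested, 5639 of 21132 were lowest in control replicate 1. Macrophage markers had 7 of 8 above 0, a median log2 fold change of 0.07 and 0 at an unadjusted p under 0.05. Their summed levels were 57.1 and 94.5 CPM in control against 88.1 and 72.3 CPM, lowest in control replicate 1. Peritubular myoid markers, 3 of 7 above 0, stood at 262.5 and 300.9 against 302.1 and 251.6 CPM. Leydig cell markers were above 0 in 8 of 8, with summed levels of 283.7 and 340.4 against 472.8 and 349.6 CPM, and endothelial markers in 6 of 7, at 35.3 and 25.6 against 44.9 and 38.5 CPM. Spermatogonia markers were above 0 in 8 of 8 (96.1 and 95.3 against 117.3 and 104.7 CPM). Those of spermatocytes were above 0 in 2 of 8 (median log2 fold change -0.11) and those of round spermatids in 3 of 7 (median -0.02). Erythrocyte markers were above 0 in 3 of 3 tested, at 9.41 and 9.61 against 19.9 and 12.8 CPM, and those of rete testis and efferent ducts in 0 of 3, at 35.6 and 26.6 against 22.2 and 20.9 CPM. Their part in the members' values was not tested.

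Genes that make, crosslink or bind this matrix but are no members gave no call. Of 83 tested in 4 lists, 0 passed the adjusted threshold in edgeR, 13 were higher and 3 lower at an unadjusted p under 0.05, and the median log2 fold change was 0.17. Over all genes 7.65% were higher and 6.47% lower at that unadjusted p. A DESeq2 test called 1. Enzymes of collagen modification and crosslinking had 4 of 27 higher and 1 lower at an unadjusted p under 0.05. Pcolce, an enhancer of procollagen processing, had 54.4 and 57.1 CPM in control against 79.2 and 71.9 CPM, and the lysyl oxidase relative Loxl1 had 19.9 and 17.5 against 12.6 and 11.6 CPM. Plod3, a lysyl hydroxylase, and P4ha2, a prolyl hydroxylase, had log2 fold changes of 0.44 and 0.53 without passing. Other basement membrane proteins had 3 of 19 higher and 1 lower. Vwa1, which binds perlecan, came nearest to the threshold, with 8.73 and 10.2 CPM against 16.1 and 18.3 CPM and a log2 fold change of 0.86 (SE 0.17, BH-adjusted p 0.0558). Npnt, which encodes nephronectin, an integrin ligand, had 2.61 and 2.17 against 0.934 and 0.704 CPM, at a log2 fold change of -1.54 (SE 0.38, BH-adjusted p 0.107). The groups of both were well apart. Ntn4 and Agrn, a netrin that binds laminin and agrin, had log2 fold changes of 0.80 and 0.57.

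Receptors of laminin and collagen had 4 of 14 higher and 1 lower at an unadjusted p under 0.05, against 7.65% and 6.47% of all genes. Dag1, which encodes dystroglycan, a laminin receptor, had 34.1 and 25.5 CPM in control against 52.0 and 40.8 CPM, with a log2 fold change of 0.64 (SE 0.17, BH-adjusted p 0.135). Itga6, the alpha subunit of a laminin integrin, had 10.4 and 10.7 against 16.6 and 14.7 CPM, and Itga11, of a collagen integrin, 13.0 and 8.04 against 17.4 and 16.8 CPM. Itga2, of another collagen integrin, was lower, at 6.5 and 8.07 against 4.3 and 5.0 CPM. These 4 receptors were named for the lowest p of their list. In all 4 the groups did not overlap and the adjusted threshold was not reached. Over all genes, both libraries labelled vKO lay above both controls in 22.7% and below in 22.6%. Interstitial matrix proteins had 2 of 23 higher and 0 lower at an unadjusted p under 0.05, Prelp and Emilin1, with log2 fold changes of 0.65 and 0.64, and a median of 0.01. Tnc and Postn followed with log2 fold changes of -0.52 and -0.54 at unadjusted p of 0.0539 and 0.0605.

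The members share features of sequence that the naming did not use. Their exons sum to a median of 8039 bases a gene, against 3243 bases over all genes tested. GGACT, a common form of the motif at which N6-methyladenosine is placed, occurred at a median of 1.52 per kb of the longest transcript in the 61 members and 1.02 per kb in 21116 genes. It occurred at 1.55 per kb in Ddr1, 2.05 in Col6a6 and 2.23 in Col27a1. These counts say nothing of whether a site is methylated, and the motif itself is rich in GC.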

How the data were processed

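RNA of 4 testis libraries was measured. The authors deposited 1 table with raw read counts per gene, per the file headers. It also holds the authors' mean normalized signal (counts divided by size factors), log2 fold change with its standard error, Wald statistic (a score), p-value and adjusted p-value, per the file headers, with column names as DESeq2 writes them. HISAT2 2.1.0 and HTSeq 0.6.1p1 are named in the submitters' processing notes. The genome build and the strand setting are not given in the sources used here. No gene had fewer than 10 counts in total.

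Counts were tested with edgeR 4.0.16 (R 4.3.3): TMM scaling, genes kept by filterByExpr, and a quasi-likelihood test of genotype with robust estimation, two-sided, with Benjamini-Hochberg adjustment over 21132 genes and a threshold of 0.05. SE is the absolute log2 fold change divided by the square root of F. CPM use TMM library sizes, and 1 kb refers to the union of exons in GENCODE M21 (GRCm38), where 25261 genes and all 62 members were found by identifier. Log2 fold changes of members were read from the fit over all genes, which was tested on simulated data. The simulation gave every gene the same spread between libraries, so it does not show the error rate of the fit in these libraries. Replicates of a group differed by more than sampling noise (chi-square per degree of freedom 17.8 and 7.31).

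Members were named if they were called, had an unadjusted p under 0.05 with separate groups, or led their role group in CPM per kb. Type IV and laminin chains were named too, and up to 4 genes a pathway list by lowest p. Many were given with values in every library, and others with group means or a log2 fold change only. Other genes were named after their values were seen, and 1 member that entered all counts and medians is not reported here by name. Members and lists were chosen with earlier results of these data known. Alternatives covered scaling, filters, DESeq2 1.42.0, robust estimation, a GC offset (loess span 0.4), a replicate block and leaving out each library.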

Additional observations from a re-analysis of the deposited data

How the results depend on the processing

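Ddr1 and Col6a6 were called under all 13 alternatives (log2 fold changes 1.15 to 1.57 and 1.77 to 2.19) and Col27a1 under 12, all but the fit without vKO replicate 1. Members called higher numbered 3 in the plain fit, 5 with library totals alone and with the DESeq2 Wald test (Col5a1 and Sparc added in both) and 2 to 11 when 1 library was left out; none was called lower in any fit. Leaving out control replicate 1 gave 8 and leaving out control replicate 2 gave 11, while calls over all genes also rose, from 59 higher and 24 lower, and ranged from 30 to 1048 higher and from 5 to 523 lower over the 4 such fits; with 1 library in a group, that library is assumed to vary like the others. All-gene calls were 181 higher and 37 lower with library totals, 137 and 80 with DESeq2, 15 lower without robust estimation and 73 lower with the GC offset. Higher calls were 71.1% of all calls in the plain fit, 83% with library totals, 54.1% with the GC offset, and 51.4% to 85.7% with 1 library left out. Members lower at an unadjusted p under 0.05 numbered 1 with library totals, 2 with DESeq2 and 2 to 5 with 1 library left out, against 4. The members' median log2 fold change was 0.04 with the GC offset and 0.10 to 0.26 with 1 library left out. Pathway genes called higher numbered 2 with library totals, 1 with either other filter, 1 with DESeq2 and 0 to 8 with 1 library left out; called lower they numbered 1 with the GC offset and 0 to 2 with 1 library left out, against 0 each. The cause of these changes was not tested.

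Both groups have replicates 1 and 2, with no word in the labels on what a number stands for. Deviations of same-numbered libraries correlated at 0.108 across 17827 genes with just 2 pairs to judge by, and no pairing was assumed. Adding the replicate block gave 627 genes higher and 390 lower, with 10 members higher (Col4a1, Col4a2, Col5a1, Col6a2, Hspg2, Lamb2 and Sparc added), and 6 pathway genes higher and 2 lower. Under GC offset plus replicate block, 172 genes were higher and 186 lower, 4 members were higher (Col5a1 added), 2 pathway genes were higher and 2 lower, and the members' median was 0.03.

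Several members near 0 changed sign without passing. Col15a1 was -0.01 with the GC offset, with and without the replicate block, and Col6a4 was -0.07 with the GC offset and -0.08 with the replicate block added. Col23a1 and Col28a1 were 0.02 and 0.03 with library totals. With 1 library left out, Col23a1 ranged from -0.25 to 0.17, Col28a1 from -0.27 to 0.22, Col6a4 from -0.08 to 0.15, Lamc3 from -0.42 to 0.14 and Nid1 from -0.65 to 0.29. Depth limits the scarce members: 5 averaged under 1 CPM.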
